A study of Homo sapiens with 26 samples.

Results

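The genes described here were 10 factors that rescue stalled ribosomes or act on what a stalled ribosome leaves behind: PELO, HBS1L, ABCE1, NEMF, LTN1, ZNF598, GIGYF2, EIF4E2, GCN1 and VCP. They were chosen by gene symbol for their known roles, and they were 10 of the 12325 transcripts in the files, which hold 1 splice isoform per gene. PF-06446846 is a small molecule that stalls the human ribosome on a limited set of nascent chains, and the comparisons asked whether the synthesis of the rescue machinery moved while such stalls were present. Ribosome footprints were counted in 22 ribo-seq libraries of Huh7, a human hepatoma line, and mRNA in 4 mRNA-seq libraries of poly-A RNA. In the first study, the compound was given at 0.3 or at 1.5 µM, beside a vehicle of DMSO, for 10 or 60 min, with 3 replicates in each of the 6 groups, all ribo-seq. In the second study, it was given at 1.5 µM for 60 min, again beside vehicle, with replicates 4 and 5 in ribo-seq and in mRNA-seq. All cells were harvested in cycloheximide, and all are a single cell line without genetic change.

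A ribosome that stops in a coding sequence is struck by the ribosome behind it, and the pair of collided ribosomes is a structure that some of these factors recognize. ZNF598 ubiquitinates the small subunit of collided ribosomes, GCN1 binds them and relays the signal to the kinase GCN2, and GIGYF2 with the cap-binding protein EIF4E2 (4EHP) represses initiation on the same mRNA. PELO and the GTPase HBS1L enter the empty A site, ABCE1 splits the subunits both in rescue and after normal termination, and NEMF, the ubiquitin ligase LTN1 and the ATPase VCP extend, mark and extract the nascent chain left on the large subunit.

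The isoform decides what a value covers. The isoforms counted for PELO (386 codons including the stop codon), ABCE1 (600), LTN1 (1767), GCN1 (2672) and VCP (807) were the MANE Select ones, the reference transcripts of GENCODE v44. HBS1L was counted on an isoform of 620 codons (685 in MANE Select), EIF4E2 on 201 (246) and NEMF on 998 (1077, with an incomplete 3′ end in the annotation). The GIGYF2 isoform held 149 codons and touched exons 24 to 26 of the MANE Select transcript, whose coding sequence has 1300 codons, so its values cover a fragment of that gene. GENCODE v44 defines no coding sequence for that isoform, and its first codons are not a start of the gene. The ZNF598 isoform had 905 codons, is not in GENCODE v44 and was named from the gene table published with the study.

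The last codons of 7 genes and 3 inner codons on which footprints collected are given here because the later results turn on them. The sequences are those of the counted isoforms in GENCODE v44 on GRCh38, read 5′ to 3′ on the coding strand. Capitals mark the codon in the ribosomal P site: in the first 7 the last sense codon, followed by the stop codon in lower case, and in the others an inner codon.
PELO, codon 385: tccagttctgaagagGATtaa
HBS1L, codon 619: gtcactgagataaaaGAAtga
ABCE1, codon 599: tactttttcttggatGATtag
LTN1, codon 1766: tgtcgtgagacgtttTTCtga
EIF4E2, codon 200: ccgcggttgaatgtgCCAtga
GCN1, codon 2671: gacgacaccatcctgACAtga
VCP, codon 806: gatgatgacctgtatGGCtaa
EIF4E2, codon 31: aaagatggtgagaagGAAaaaacggaa
VCP, codon 103: gatgtcatcagcatcCAGccatgccct
HBS1L, codon 252: gtcttggatgaaactGGCgaagaaagg
The last sense codon of PELO lies at chr5:52801835-52801837 on the plus strand in exon 3 of 3, that of HBS1L at chr6:134965282-134965284 on the minus strand in exon 17 of 17, and that of ABCE1 at chr4:145127568-145127570 on the plus strand in exon 18 of 18. Those of LTN1 (chr21:28930451-28930453, minus strand, exon 30 of 30), EIF4E2 (chr2:232569012-232569014, plus strand, exon 6 of 6), GCN1 (chr12:120127852-120127854, minus strand, exon 58 of 58) and VCP (chr9:35057120-35057122, minus strand, exon 17 of 17) likewise lie in the final exon. EIF4E2 codon 31 is at chr2:232556486-232556488 in exon 2, VCP codon 103 at chr9:35066811-35066813 in exon 4, and HBS1L codon 252 at chr6:134996791-134996793 in exon 6. The stop codons of these 7 comprised 2 TAA, 4 TGA and 1 TAG, the TAG being that of ABCE1.

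Coding sequences held 6414227 to 22224137 reads per ribo-seq library and 15227654 to 22036358 per mRNA-seq library. Of 11 hepatocyte and Huh7 markers, 10 were found by name with a summed level of 19600 to 31600 CPM over the ribo-seq libraries. CPM are reads scaled to the coding total of a library after that total was adjusted by a TMM normalization factor. ALB was not found by name, where 1054 of the 12325 transcripts were left without one. Of 6 markers of other cell types, PECAM1 and ACTA2 were found, with a summed level of 294 to 883 CPM that was mostly ACTA2. The transcripts named next were among those the paper picked as stalled from these same libraries. Their values are therefore not an independent check of the compound, and a lower count does not itself show a stall. HSD17B11, a lipid-droplet dehydrogenase, fell with 1.5 µM by a log2 of 1.16 ± 0.12 (SE) after 10 min (adjusted p = 0.00115, quasi-likelihood test of edgeR). The p was Benjamini-Hochberg adjusted over all transcripts tested, as was every adjusted p that follows. In the second study HSD17B11 fell by 1.07 ± 0.11 (adjusted p = 0.00258, edgeR). After 60 min in the first study the value was -0.67 ± 0.14 (adjusted p = 0.267), while the growth factor MDK fell by 1.15 ± 0.16 (adjusted p = 0.0171). The whole-sequence count did not pass for every such transcript: RPL27, a ribosomal protein, was at -0.12 ± 0.10 after 10 min (adjusted p = 0.55) and -0.07 ± 0.14 after 60 min (adjusted p = 1.0) in the first study, and fell by 0.61 ± 0.06 in the second (adjusted p = 0.0012).

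All 10 genes were translated in every ribo-seq library, with 2933 (GIGYF2) to 438381 (VCP) footprints over the 22 libraries. Levels between genes are given per length, as CPM per kilobase of coding sequence. VCP, which also serves in ER-associated degradation and many other extraction steps, was the highest, with a lowest value of 495, a median of 683 and a highest of 767. ABCE1 followed at 77.6, 88.9 and 111 and EIF4E2 at 56.3, 78.2 and 90.8. PELO (27.4, 32.2 and 36.3) and its partner HBS1L (26.9, 31.9 and 36.9) sat at the same level, GCN1 reached 20.9, 27.0 and 32.6, and the GIGYF2 fragment 19.6, 23.7 and 31.6. LTN1 (12.4, 17.1 and 20.0), NEMF (9.18, 11.4 and 13.9) and ZNF598 (8.88, 11.2 and 13.3) were the lowest. Over 12104 transcripts the median was 15.5 CPM per kilobase, so the collision sensor ZNF598 and the nascent-chain factor NEMF lay below the middle of all transcripts, at the 42.3rd and 42.7th percentile, and VCP at the 97.2nd.

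**Figure D1:**
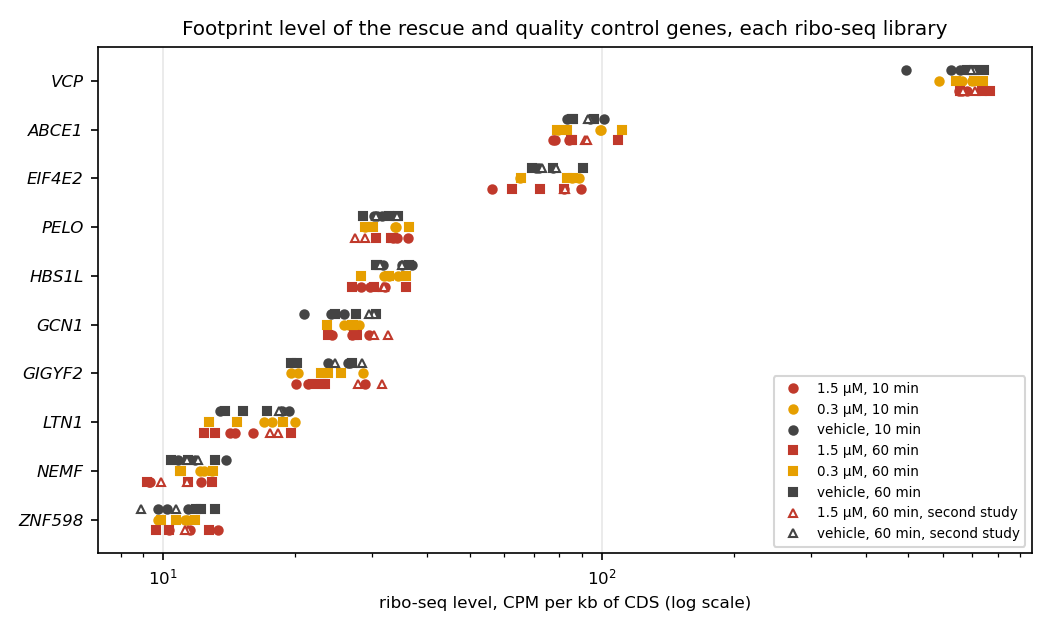
Footprint level of each gene (vertical axis, in order of the median) as CPM per kilobase of coding sequence on a log scale. Each point is 1 of the 22 ribo-seq libraries, gray for vehicle, orange for 0.3 µM and red for 1.5 µM, with circles for 10 min, squares for 60 min and open triangles for the second study. The points of VCP, between 495 and 767, lie apart from those of all other genes, while the colors mix within each gene.

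Only 2 steps of this order separated the genes in every pair of libraries. The ranges of VCP and ABCE1 did not overlap, nor did those of EIF4E2 and PELO. Within a library, ABCE1 was above EIF4E2 in 18 of 22, GIGYF2 above LTN1 and LTN1 above NEMF in 22 of 22. PELO was above HBS1L in 10 of 22 and NEMF above ZNF598 in 12 of 22, so these neighbors did not differ beyond their spread. The spread of a gene over all 22 libraries, whatever the dose and time, was small: the coefficient of variation ran from 8.02% (PELO) to 15.1% (LTN1), and the highest library exceeded the lowest by 1.33-fold (PELO) to 1.62-fold (GIGYF2 and LTN1).

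Footprints per mRNA differed far more between the genes than between conditions. Translational efficiency (TE) is the ribo-seq CPM divided by the mRNA-seq CPM of the same replicate, and among 10505 transcripts with at least 50 reads in each assay its median in vehicle was 0.909, with quartiles of 0.545 and 1.51. NEMF had a TE of 2.94 and 4.54 in vehicle replicates 4 and 5, ABCE1 3.07 and 3.62, LTN1 2.50 and 3.05 and GIGYF2 2.72 and 2.58. These 4 lay at the 97.8th, 96.8th, 94.0th and 93.0th percentile of their means. VCP (1.57 and 1.52), PELO (1.52 and 1.42) and HBS1L (1.19 and 1.22) were above the median, and GCN1 (0.72 and 0.771) and EIF4E2 (0.677 and 0.805) below it. ZNF598 stood at the other end, with 0.258 and 0.204, at the 5.7th percentile: it had 112 and 118 CPM in mRNA-seq, more than ABCE1 (55.1 and 46.3), LTN1 (39.5 and 32.0) or PELO (26.0 and 24.8), but 28.9 and 24.1 CPM in ribo-seq. The 2 vehicle replicates of NEMF rested on 203 and 175 mRNA reads and differed by more than those of any other of the 10 genes. Those of the GIGYF2 fragment rested on 72 and 109 mRNA reads, of which codon 47 alone held 15.3% and 22.9%. With 1.5 µM, TE was 3.24 and 3.42 for NEMF, 3.28 and 2.89 for ABCE1 and 0.259 and 0.27 for ZNF598.

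**Figure D2:**
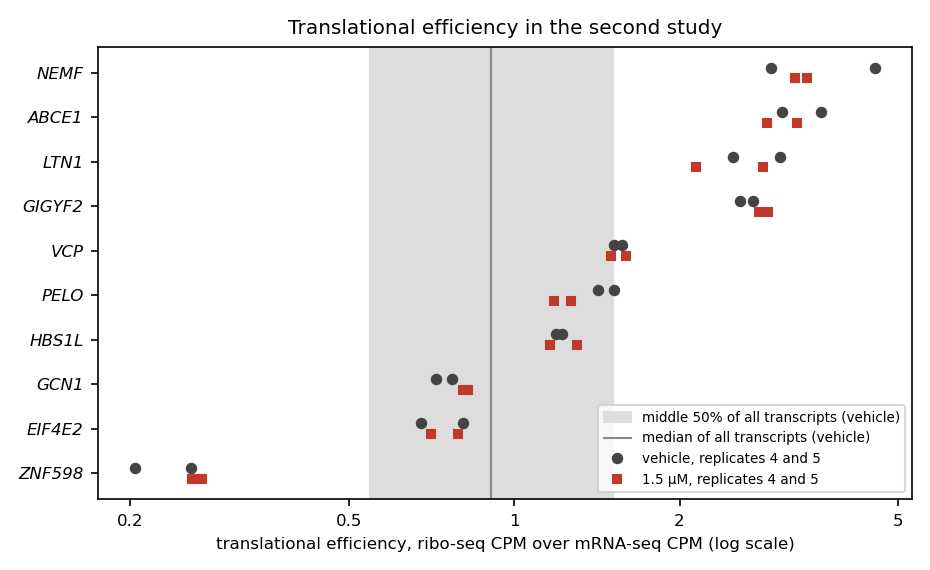
Translational efficiency of each gene (vertical axis, in order of the vehicle mean) on a log scale, with circles for vehicle and squares for 1.5 µM PF-06446846, 1 symbol for each of replicates 4 and 5. The gray band spans the middle of all transcripts in vehicle, from 0.545 to 1.51, and the line is their median of 0.909. NEMF, ABCE1, LTN1 and GIGYF2 lie above the band and ZNF598, at 0.204 to 0.27, below it in both treatments.

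After 10 min of 1.5 µM PF-06446846, none of the 10 genes passed the false discovery rate of 0.1, against 94 of 11045 transcripts (0.851%). None had an unadjusted p under 0.05 in edgeR, against 17.7% of all transcripts. DESeq2 called 0 of the 10, against 516 of the 9117 transcripts to which it gave an adjusted p. It gave 0 of the 10 an unadjusted p under 0.05, against 15.3% of all transcripts. Each library pools many cells, so a change in fewer cells and a change in the level per cell cannot be told apart. The log2 fold changes ran from -0.24 (NEMF) to 0.18 (GCN1), with 5 above and 5 below 0 and a median of -0.0295 (0.00552 over all transcripts). The 95% intervals together reached from -0.55 to 0.44, a fall of up to 31.8% or a rise of up to 36.1% in any of the 10.

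The lowest adjusted p-values of that comparison among the 10 were those of ABCE1 and HBS1L, and neither passed. ABCE1 had 141, 140 and 152 CPM with 1.5 µM, 170, 182 and 150 with vehicle and 179, 143 and 178 with 0.3 µM. The libraries overlapped at vehicle replicate 3, and the difference at 1.5 µM was -0.21 ± 0.11 (adjusted p = 0.304, edgeR). HBS1L had 52.6, 55.1 and 59.4 CPM with 1.5 µM and 65.0, 68.5 and 59.0 with vehicle, again with vehicle replicate 3 inside the treated range, and differed by -0.20 ± 0.11 (adjusted p = 0.344). Its partner PELO had 42.0, 38.6 and 39.4 CPM against 36.6, 35.6 and 35.1, a difference of 0.16 ± 0.11 (adjusted p = 0.446). PELO was the 1 gene of 10 whose groups did not overlap, which 22.0% of all transcripts tested also showed.

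Among the factors that act on the nascent chain, NEMF had 27.9, 27.7 and 36.6 CPM with 1.5 µM and 35.4, 41.5 and 32.3 with vehicle (log2 fold change -0.24 ± 0.14, adjusted p = 0.382). LTN1 had 77.5, 75.1 and 84.7 CPM against 99.1, 103 and 71.4 (-0.21 ± 0.14, adjusted p = 0.431). In both genes vehicle replicate 3 was lower than the other vehicle libraries, and without it the LTN1 difference was -0.35 ± 0.11 with an adjusted p of 0.0655, past the threshold, in a fit that called 1656 of 11130 transcripts (14.9%). VCP had 1610, 1650 and 1580 CPM against 1590, 1200 and 1520, with vehicle replicate 2 as the low library (0.17 ± 0.11, adjusted p = 0.438).

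The collision sensors and the repressor complex overlapped between groups as well. ZNF598 had 36.0, 28.0 and 31.1 CPM with 1.5 µM and 27.7, 26.4 and 31.1 with vehicle (0.16 ± 0.13, adjusted p = 0.53), and GCN1 235, 215 and 194 against 207, 168 and 193 (0.18 ± 0.11, adjusted p = 0.399). EIF4E2 spread widely with 1.5 µM, at 34.0, 54.1 and 49.4 CPM, around vehicle at 43.3, 42.8 and 46.8 (0.06 ± 0.15, adjusted p = 0.855). The GIGYF2 fragment had 62 to 125 reads per library with 1.5 µM and differed by -0.12 ± 0.18 (adjusted p = 0.749), the widest interval of the 10 at this time.

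After 60 min in the first study none of the 10 genes passed the threshold, against 8 of 11021 transcripts (0.0726%), all 8 lower, and none had an unadjusted p under 0.05 in edgeR or DESeq2. Of all transcripts 242 (2.2%) had one in edgeR and 180 (1.63%) in DESeq2, which called 16 of 11021 transcripts and 0 of the 10. The log2 fold changes ran from -0.20 (ZNF598) to 0.06 (ABCE1), with a median of -0.0372 (-0.00225 over all transcripts), and the intervals from -0.52 to 0.44. ZNF598 had 26.2, 27.9 and 34.4 CPM with 1.5 µM and 33.2, 32.4 and 35.7 with vehicle (-0.20 ± 0.15, adjusted p = 1.0). ABCE1 had 195, 153 and 154 CPM against 173, 154 and 155, a difference of 0.06 ± 0.13 and an interval of -0.22 to 0.35. In 0 of 10 genes were the groups apart, against 6.72% of all transcripts. HBS1L, ZNF598 and GCN1 were lower with 1.5 µM in 3 of 3 same-numbered pairs, as 14.1% of all transcripts were. With the replicate number as a block their values were -0.08 ± 0.10 (adjusted p = 0.894, edgeR), -0.20 ± 0.11 (adjusted p = 0.722) and -0.07 ± 0.08 (adjusted p = 0.894). Over the 10 genes the SE with this block ran from 0.07 (VCP) to 0.17 (GIGYF2), while the intervals above come from the fit without it.

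Among the fits without a replicate block, ribo-seq of the second study gave the tightest intervals. In edgeR 13 of 11263 transcripts were called (0.115%) and again 0 of the 10 genes, with 0 under an unadjusted p of 0.05 (2.97% of all transcripts). DESeq2 called 17 of the 8861 transcripts to which it gave an adjusted p, and 0 of the 10. It had 0 of the 10 under an unadjusted p of 0.05 (0.808% of all transcripts). The log2 fold changes ran from -0.20 ± 0.10 (PELO, adjusted p = 1.0) to 0.20 ± 0.12 (ZNF598), with a median of -0.0221 (0.000805 over all transcripts). PELO had 31.7 and 33.5 CPM with 1.5 µM and 39.5 and 35.3 with vehicle. ABCE1 (165 and 166 against 169 and 168 CPM) and LTN1 (97.1 and 92.7 against 98.7 and 97.7) were also below vehicle in both libraries, by far less. ZNF598 (31.0 and 30.3 against 28.9 and 24.1), EIF4E2 (49.5 and 49.8 against 47.5 and 44.1) and GCN1 (262 and 242 against 242 and 237) were above it. For GCN1 the lower treated and the higher vehicle library differed only beyond the printed digits. In all, the groups did not overlap in 6 of the 10 genes, 3 in each direction, where 30.2% of all transcripts did not overlap with 2 libraries a group. For ABCE1, LTN1 and VCP the interval of the log2 fold change lay within -0.21 to 0.12, so a change of more than 14% down or 9% up was outside it.

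The mRNA levels did not separate the treatments either. In mRNA-seq 0 of 10 genes and 0 of 11812 transcripts (0%) were called by edgeR, which gave 228 transcripts but none of the 10 an unadjusted p under 0.05, and DESeq2 called 1 transcript, which was none of the 10. The log2 fold changes of the 10 ran from -0.08 (HBS1L) to 0.11 (LTN1), with a median of 0.0333 (-0.00072 over all transcripts). The groups were apart in 2 genes, PELO (26.9 and 26.3 against 26.0 and 24.8 CPM) and VCP (1080 and 1080 against 1090 and 1100 CPM), and in 29.7% of all transcripts. For TE, tested as the interaction of assay and treatment, 0 of the 10 were called against 4 of 11799 transcripts (0.0339%), with 0 of 10 under an unadjusted p of 0.05 in edgeR (3.03% of all transcripts). DESeq2 called 0 of the 10 and 11 of 11799 transcripts for TE, with 0 of 10 under an unadjusted p of 0.05 (1.58% of all transcripts). The values ran from -0.27 ± 0.16 (PELO, adjusted p = 1.0) to 0.19 ± 0.15 (ZNF598), and the intervals from -0.66 to 0.74, the widest being that of the GIGYF2 fragment.

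**Figure D3:**
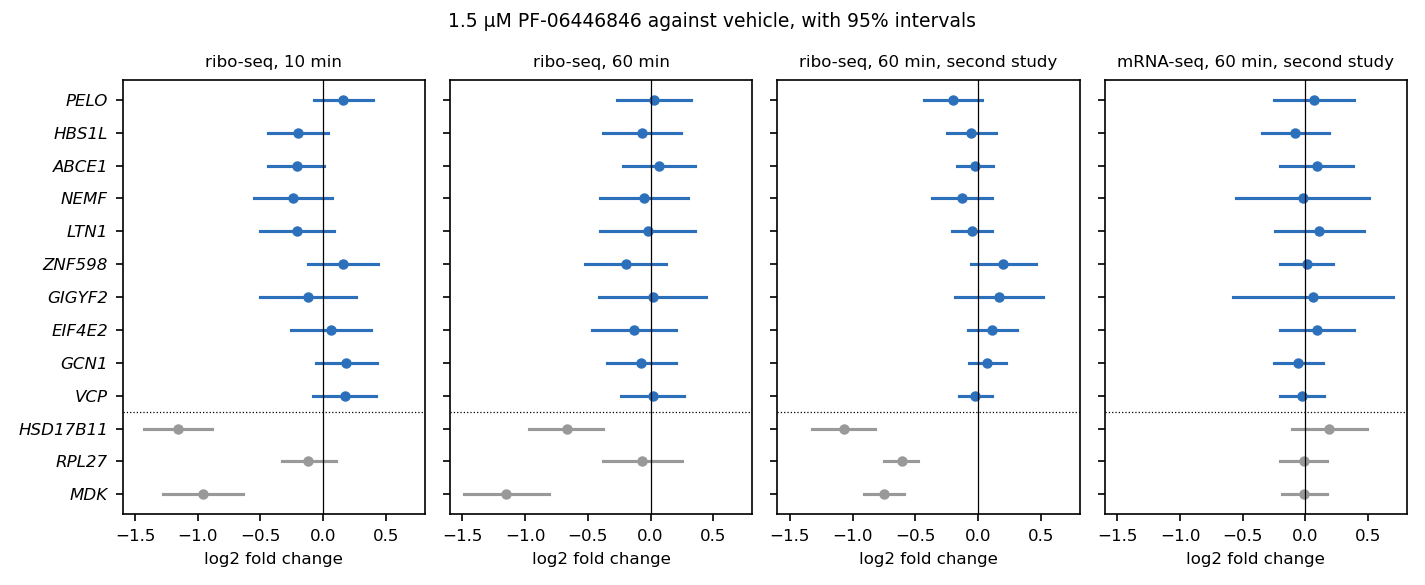
Log2 fold change of 1.5 µM PF-06446846 against vehicle (horizontal axis) with its 95% interval, for the 10 genes in blue and, below the dotted line, HSD17B11, RPL27 and MDK in gray. The panels are ribo-seq after 10 and 60 min, and ribo-seq and mRNA-seq of the second study. Every blue interval crosses 0, while those of HSD17B11 and MDK lie below 0 in the 3 ribo-seq panels, at -1.16 and -0.96 after 10 min, and cross 0 in mRNA-seq. That of RPL27 lies below 0 only in ribo-seq of the second study.

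At 0.3 µM, edgeR called 0 of the 10 genes and no other transcript at either time (0% of 11131 after 10 min and 0% of 11141 after 60 min), with 104 and 97 transcripts under an unadjusted p of 0.05, none of them among the 10, and DESeq2 called 0 at both times. The 2 doses were compared with the same vehicle libraries. After 10 min the values ran from -0.17 (GIGYF2) to 0.18 (GCN1), with 224, 212 and 207 CPM for GCN1, and ABCE1 was at -0.001 ± 0.13. After 60 min they ran from -0.21 ± 0.13 (ZNF598) to 0.09 (GIGYF2). ZNF598 was at -0.21 with 0.3 µM and at -0.20 with 1.5 µM after 60 min, against the same 3 vehicle libraries, in which it had 33.2, 32.4 and 35.7 CPM. Its 26.8, 29.2 and 32.0 CPM with 0.3 µM were below all of these, the 1 gene of 10 whose groups were apart at that time (4.91% of transcripts), while 0 of 10 were apart after 10 min (4.63%). By same-numbered pairs GCN1 was higher in 3 of 3 after 10 min (9.06% of transcripts), and ZNF598 and GCN1 were lower in 3 of 3 after 60 min (11.7%). With the replicate number as a block the values were 0.19 ± 0.10 for GCN1 after 10 min, and -0.21 ± 0.10 for ZNF598 and -0.09 ± 0.08 for GCN1 after 60 min (adjusted p = 1.0 for each, edgeR).

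Values between the vehicle times, at which no compound was present, ran from -0.19 (GIGYF2) to 0.26 (VCP). Between 60 and 10 min of vehicle, 0 of the 10 genes and 0% of 11098 transcripts were called by edgeR (769 transcripts and 0 of the 10 under an unadjusted p of 0.05). DESeq2 called 43 transcripts and had 1 of the 10 genes under an unadjusted p of 0.05 (5.86% of all transcripts), and left 9 of the 10 without an adjusted p. The largest differences were 0.26 ± 0.13 for VCP (1650, 1800 and 1710 CPM after 60 min, 1590, 1200 and 1520 after 10 min, adjusted p = 0.713) and 0.25 ± 0.12 for ZNF598 (adjusted p = 0.713). These were the 2 of 10 genes whose groups were apart, both higher after 60 min, against 12.5% of transcripts. The test of whether the 1.5 µM effect itself differed between times called 0 of the 10 genes and 0% of 11167 transcripts (506 transcripts and 0 of the 10 under an unadjusted p of 0.05; DESeq2 called 1 transcript, none of the 10). Its values ran from -0.37 ± 0.19 for ZNF598 (adjusted p = 0.856) to 0.27 ± 0.16 for ABCE1.

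None of the 10 genes passed the minimum of Dmax, a first screen for footprints shifted toward the 5′ end of a coding sequence, in which a pass does not by itself mark a stalled transcript. Dmax is the largest excess of the cumulative footprint fraction of treated over vehicle cells along a coding sequence, with replicates pooled. A shift of footprints toward the 3′ end is not scored. The Z-score of Dmax compares a transcript with 300 others of like read count. It is the Dmax divided by the root mean square of the Dmax values in that bin, not a distance from their mean in SD. With a Z-score of 2 as the minimum, 0 of the 10 genes passed after 10 min (3.48% of all transcripts did), after 60 min (2.67%) or in the second study (2.38%). The highest were ZNF598 at 1.53 (a difference of 0.126 at codon 296) and GIGYF2 at 1.48 after 10 min, LTN1 at 1.47 in the second study and ZNF598 at 1.27 after 60 min. VCP, with 42117 treated and 57200 vehicle footprints after 10 min, had a Dmax of 0.0452. In HSD17B11, RPL27 and MDK the Z-scores were 5.54 to 10.8, with the largest difference between codons 18 and 36. RPL27 thus passed by its positions at both times of the first study, where its count had not. These transcripts had been picked with this screen on the same libraries, so their passing was not an independent check. A last measure counted the footprints 3′ of the Dmax position, or 3′ of codon 50 in transcripts whose Z-score was under 2, as it was in all 10 genes. It called 0 of the 10 genes after 10 min (3.95% of transcripts), after 60 min (0.224%) and in the second study (0.346%) in edgeR, with no unadjusted p under 0.05. The lowest p of these was that of GCN1 after 10 min (0.22 ± 0.12, adjusted p = 0.311, edgeR).

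**Figure D4:**
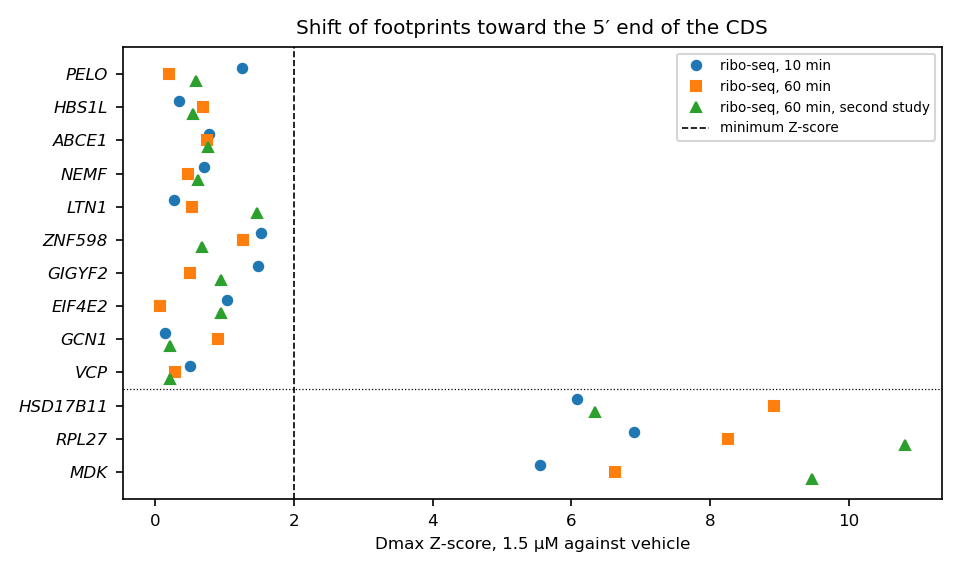
Dmax Z-score (horizontal axis) of the 10 genes and, below the dotted line, of HSD17B11, RPL27 and MDK, for 1.5 µM PF-06446846 against vehicle in 3 ribo-seq comparisons. Each symbol is 1 gene in 1 comparison with replicates pooled, and the dashed line is the minimum of 2. All 10 genes lie between 0.0715 and 1.53. The 3 stalled transcripts, which had been picked with this screen on the same libraries, lie at 5.54 or more.

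The share of footprints on the first 50 codons had a higher mean in most of the genes after 10 min, as it had in most transcripts. After 10 min the median share over 7244 transcripts of at least 200 codons was 6.74% with 1.5 µM and 5.71% with vehicle, and 69.8% of transcripts were higher. Of the 9 genes of that length, the GIGYF2 fragment being shorter, 6 had a higher mean, and in 3 (PELO, ZNF598 and VCP) the groups were apart, as they were in either direction in 25.1% of transcripts. PELO had 8.65%, 8.27% and 8.80% with 1.5 µM and 5.36%, 5.51% and 5.30% with vehicle (exact two-sided permutation p = 0.1, the smallest that 3 against 3 libraries allow). With 0.3 µM the same gene spread from 4.59% to 12.7%. VCP had 3.67%, 3.37% and 3.73% against 2.38%, 2.86% and 3.12%, and ZNF598 4.03%, 1.84% and 3.38% against 1.22%, 1.14% and 1.50%, the latter from 4 to 10 reads per library.

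The later time and the second study gave another picture of the same codons. After 60 min 5 of the 9 genes had a higher mean (49.5% of transcripts), and the groups were apart in 1, EIF4E2, and in 9.53% of transcripts. EIF4E2 had 30.3%, 33.8% and 28.8% of its footprints there with 1.5 µM and 44.3%, 37.5% and 37.4% with vehicle (exact two-sided permutation p = 0.1). An even spread over its 201 codons would give 24.9%, so this short transcript was loaded toward its start in all groups. By same-numbered pairs, EIF4E2 was lower in 3 of 3 (13.5% of transcripts) and NEMF higher in 3 of 3 (14.3%), with 4.54%, 6.63% and 4.89% against 0.917%, 5.05% and 1.83%. The NEMF shares rest on few reads, 39, 12 and 18 with 1.5 µM and 2, 23 and 7 with vehicle. The first 50 codons of the GIGYF2 fragment, which are not a start of the gene, were also higher in 3 of 3 pairs. The fragment was shorter than the transcripts of the background, so no share of transcripts applies to it. These codons include codon 47, on which mRNA-seq reads also collected. In the second study 5 of the 9 genes were apart (32.5% of transcripts): ABCE1, ZNF598, EIF4E2 and VCP higher and PELO lower, with an exact two-sided permutation p of 0.333, the smallest that 2 against 2 libraries allow. PELO had 5.99% and 8.97% with 1.5 µM and 10.9% and 10.6% with vehicle, and in mRNA-seq of the same cultures 8.35% and 7.54% against 9.78% and 12%. In mRNA-seq the groups were apart in 3 of the 9 genes (29.3% of transcripts), ABCE1 higher and PELO and NEMF lower.

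A ribosome waiting for termination or recycling holds the last sense codon in its P site, the codons in capitals in the first 7 sequences above. With the 8 vehicle ribo-seq libraries pooled, this codon held more footprints than the mean codon of the transcript in those 7 genes and in ZNF598, the end of whose isoform could not be checked in GENCODE v44. ZNF598 had 61.0 times the mean per codon, at the 99.6th percentile of 8467 transcripts with at least 800 pooled vehicle reads. ABCE1 had 17.7 times, GCN1 16.8, EIF4E2 9.01, HBS1L 7.03, VCP 4.38, LTN1 4.15 and PELO 3.83, around a median of 8.4 for all transcripts. Single libraries did not always show it: PELO and LTN1 had 0 footprints there in all 3 vehicle libraries of 60 min, VCP had 0.143 and 0.558 times the mean in vehicle replicates 1 and 2 of 10 min, and HBS1L 0.738 times in vehicle replicate 2 of 60 min. In mRNA-seq the same codons held 0 (LTN1) to 2.36 (ABCE1) times the mean. NEMF and GIGYF2, whose isoforms end elsewhere, had 0 footprints at the corresponding codon in all libraries.

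After 10 min of 1.5 µM this terminal signal was lower in most of the 8 genes, as it was in most transcripts. Over all 8467 transcripts the median share of footprints at the last sense codon was 1.11% with 1.5 µM and 1.91% with vehicle, and 23.5% of transcripts were higher. Of the 8 genes 7 had a lower mean. The exception was VCP, with 190 of 42117 footprints (0.451%) with 1.5 µM and 126 of 57200 (0.22%) with vehicle. With 0.3 µM it had 598 of 64094 (0.933%). These VCP counts are pooled over the libraries of a group. Most of the vehicle footprints came from replicate 3, while vehicle replicates 1 and 2 lay below the mean per codon. The VCP libraries with 1.5 µM and with vehicle overlapped. In 3 of the 8 genes the groups were apart and lower, against 23.6% of transcripts, and in 0 apart and higher, against 1.81%. ABCE1, itself the factor that splits ribosomes at this step, had 0.62%, 1.70% and 1.04% with 1.5 µM, 3.06%, 2.49% and 2.67% with 0.3 µM and 2.48%, 4.06% and 3.8% with vehicle. The treated libraries at 1.5 µM lay below both other groups, and those at 0.3 µM overlapped vehicle. PELO had 0 of 1039 footprints there with 1.5 µM, which allows a share of up to 0.289%, and 25 of 1427 (1.75%) with vehicle. HBS1L had 0, 5 and 1 footprints with 1.5 µM and 12, 20 and 10 with vehicle, or 6 of 1462 and 42 of 2575. For each of the 3 genes the exact two-sided permutation p was 0.1, the smallest possible. Limits and intervals of this kind cover counting error only.

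At the later time the groups of these 3 genes overlapped, and the means of the 8 genes were lower with 1.5 µM in 5 and higher in 3, where 26.5% of transcripts were higher. After 60 min vehicle cells had 0 of 1113 PELO footprints at the last sense codon (a share of up to 0.27%) and 5 of 1826 for HBS1L, below their own vehicle values at 10 min, and 1.5 µM gave 6 of 1458 and 7 of 2390. ABCE1 had 2.18%, 1.29% and 1.74% with 1.5 µM and 4.89%, 1.06% and 2.25% with vehicle, which overlapped. ZNF598 was the 1 of 8 genes whose groups were apart, lower with 1.5 µM at 2.92%, 3.8% and 4.58% against 10.4%, 8.21% and 6.32% (5.68% of transcripts were apart and lower, 1.15% apart and higher). With 0.3 µM ZNF598 had 7.01%, 6.30% and 12.2%. By same-numbered pairs ZNF598 was lower in 3 of 3 (20.1% of transcripts) and EIF4E2 higher in 3 of 3 (4.24%), with 6.09%, 4.18% and 6.55% against 4.57%, 3.75% and 3.74%. In the second study the means were mixed, with 5 of 8 genes higher and 3 lower and a median difference of 0.116 percentage points (-0.0841 to 0.457 without 1 library, and below 0 without vehicle replicate 4 or treated replicate 5), while 33.6% of transcripts were higher. There ABCE1 was apart and higher, at 3.78% and 4.52% against 3.12% and 3.27% (9.01% of transcripts), and GCN1 apart and lower, at 0.604% and 0.561% against 0.757% and 0.694% (22.3% of transcripts).

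**Figure D5:**
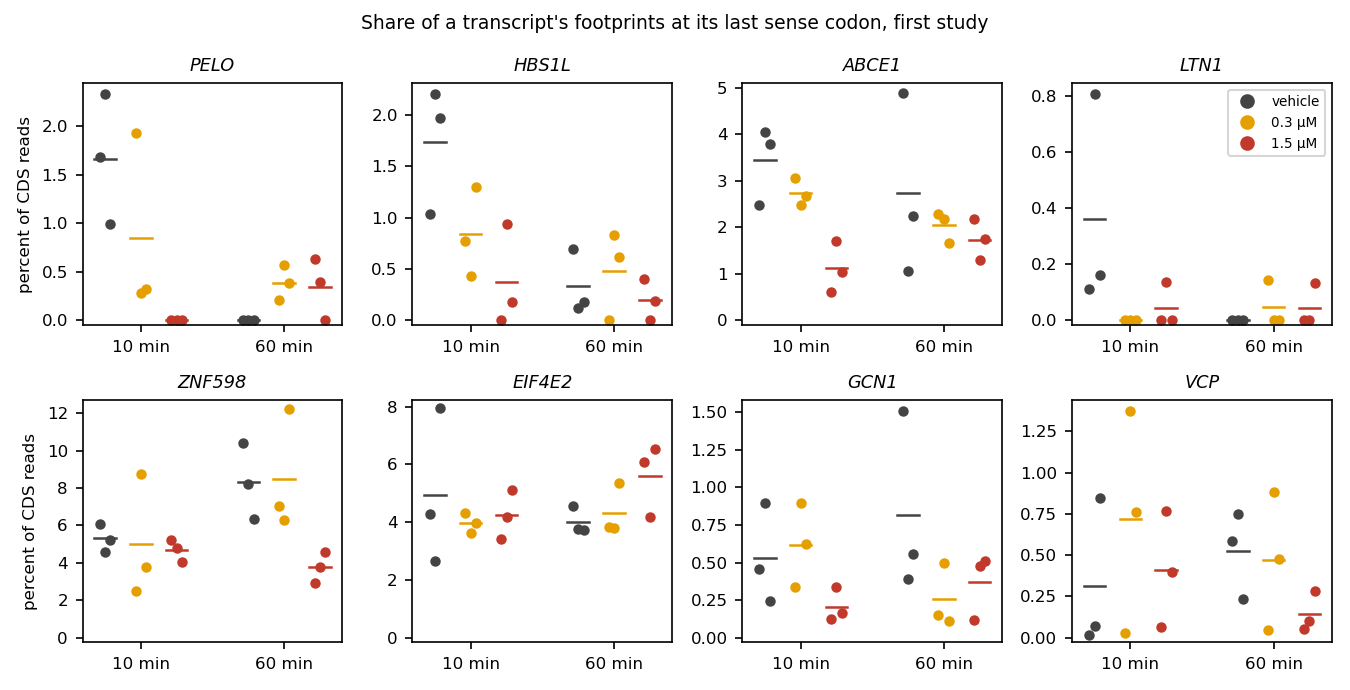
Share of each gene's coding footprints at its last sense codon (vertical axis, percent, with a scale of its own in each panel) in the first study, by time. Points are the 3 libraries of a group and bars their mean, gray for vehicle, orange for 0.3 µM and red for 1.5 µM. After 10 min the red points of PELO, HBS1L and ABCE1 lie below all gray points, and after 60 min those of ZNF598 do, at 2.92% to 4.58%.

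Within the coding sequences, 1 codon per gene was followed, the one with the most footprints in vehicle outside the first 15 and last 5 codons. Since these codons were chosen for their vehicle reads, their height in vehicle is a description, and a comparison with the compound starts from the group that chose them. The background is the codon chosen in the same way in 8467 transcripts. After 10 min of 1.5 µM the share was apart and lower in 3 of 10 genes (10.0% of transcripts) and apart and higher in 2 (6.70%). After 60 min it was apart and lower in 1 (7.04%) and higher in 0 (1.64%), and in the second study lower in 1 (24.6%) and higher in 1 (9.54%). EIF4E2 codon 31, a glutamate codon followed by a lysine codon in the stretch printed above, held 14 times the mean in vehicle and 1.11 times in mRNA-seq. Its share was 2.56%, 6.10% and 5.32% with 1.5 µM and 8.68%, 7.39% and 7.96% with vehicle after 10 min, and 5.49%, 4.88% and 4.87% against 6.86%, 6.85% and 6.59% after 60 min, so it was below vehicle in all 6 treated libraries. In the second study it was 5.10% and 7.90% against 6.37% and 3.72%, which overlapped. VCP codon 103 (11.9 times the mean in vehicle, 1.19 in mRNA-seq) had 1.41%, 1.59% and 2.89% with 1.5 µM and 0.952%, 0.679% and 1.2% with vehicle after 10 min, and the groups overlapped at the other comparisons. HBS1L codon 252, a glycine codon before a pair of glutamate codons, had 1.1%, 1.50% and 1.59% against 1.98%, 2.42% and 1.78% after 10 min, and was apart and higher in the second study, at 1.74% and 2.53% against 0.971% and 0.671%. PELO codon 287 (7.56 times the mean in vehicle, 3.44 in mRNA-seq) had 1.04%, 1.33% and 1.07% against 2.76%, 2.33% and 1.99% after 10 min and overlapped later. ZNF598 codon 179 held 17.3 times the mean in vehicle and 28.4 times with 1.5 µM. Its share was 1.61%, 6.25% and 1.69% against 1.42%, 1.43% and 0.749% after 10 min, with replicate 2 far above the other treated libraries, and the groups overlapped at 60 min in both studies. By same-numbered pairs after 60 min in the first study it was higher in 3 of 3 (8.82% of transcripts), with 1.03%, 8.15% and 7.01% against 0%, 3.58% and 4.02%, and EIF4E2 codon 31 was lower in 3 of 3 (17.5%). ZNF598 codon 179 had 2.55% and 0.943% in the second study, against 1.46% and 0.909%. NEMF codon 920 was apart and lower in the second study, on 1 footprint in each treated library and 2 in each vehicle library. The codons followed in ABCE1 (138), LTN1 (306) and GCN1 (1794), at 8.38, 8.30 and 7.82 times the mean in vehicle, overlapped in all 3 comparisons. The strongest codon of the GIGYF2 fragment, codon 47, held 19.1 times the mean in vehicle but also 27.5 times in mRNA-seq, and overlapped in all 3 comparisons as well.

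The wider rescue pathway was read from lists of 53 genes, of which 50 were found by name: termination and recycling (6 of 7), collision sensing and ribosome ubiquitination (13 of 13), the ASC-1 complex that takes collided ribosomes apart (4 of 4), nascent-chain quality control (9 of 10), mRNA decay on stalled ribosomes (13 of 13) and the partners and paralogs of 4EHP (5 of 6). In edgeR 0 of 50 rose and 0 fell in any of the 9 comparisons, and in DESeq2 0 were called, with no adjusted p for 46 of the 50 between the vehicle times and for 4 in each of 2 other comparisons. The largest count over all transcripts in DESeq2 was 516 of 9117, after 10 min of 1.5 µM. EIF4E3, FAF1 and GSPT2 were not found by name and may be among the unnamed transcripts. How much of each gene the counted isoform covers was not checked for these lists. RNF14 was counted on 99 codons, SKIC2 on 183 and SMG1 on 854, so such values may cover a part of the gene. An unadjusted p under 0.05 in edgeR was reached by 8 of 50 with 1.5 µM after 10 min, where 17.7% of all transcripts reached it, by 3 in ribo-seq of the second study (2.97% of all transcripts), by 1 for TE (3.03%), by 3 between the vehicle times (6.93%), by 1 in the test between times (4.53%), and by 0 in the other 4. The median log2 fold change of the 50 after 10 min of 1.5 µM was -0.0614, beside 0.00552 over all transcripts.

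Named here are the genes of lowest p in each list after 10 min of 1.5 µM, and over all lists in the other comparisons. After 10 min of 1.5 µM these were MAP3K20, the kinase ZAK that senses collisions (-0.39 ± 0.15, adjusted p = 0.205, edgeR), the helicase UPF1 (0.28 ± 0.11, adjusted p = 0.224), the release factor ETF1 (-0.27 ± 0.11, adjusted p = 0.239) and, with unadjusted p-values above 0.05, RCHY1 (0.28 ± 0.16), ASCC3 (-0.20 ± 0.11) and ZFP36 (0.14 ± 0.16). IMPACT, which competes with GCN2 for GCN1, had 0.40 ± 0.19 after 60 min of 1.5 µM (adjusted p = 1.0) and -0.58 ± 0.18 between the vehicle times (adjusted p = 0.71). In ribo-seq of the second study the lowest was RACK1, the ribosomal scaffold on which ZNF598 depends (-0.15 ± 0.06, adjusted p = 1.0, edgeR, and -0.15 ± 0.08 in mRNA-seq). ZFP36 lay beside it with the other sign, at 0.36 ± 0.14 (unadjusted p = 0.0233 against 0.0231 for RACK1, edgeR). In mRNA-seq the lowest was SMG1 (0.23 ± 0.11) and for TE it was TRIP4 (-0.34 ± 0.16). With 0.3 µM the lowest were EIF2D after 10 min (-0.20 ± 0.12) and RCHY1 after 60 min (0.33 ± 0.17), and none of these genes was called. ANKZF1, which releases the stalled peptide from its tRNA, had -0.65 ± 0.19 between the vehicle times (adjusted p = 0.71, edgeR).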

How the data were processed

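Reads were counted by the authors, per codon from the inferred P site, on the most abundant isoform of each expressed gene, after removal of rRNA reads and alignment with Bowtie (1.1.2 in the submitters' processing notes, which also name kallisto 0.42.5, DESeq and GRCh38). Reads with up to 5 equally good sites were kept, so reads from close paralogs may count more than once. The deposited values are raw counts and were summed over each CDS. The 10 genes and the wider lists were chosen with earlier results of these data known. Transcripts were named from GENCODE v44 (11270 of 12325).

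Every comparison was fitted over all transcripts with edgeR 4.0.16 in R 4.3.3 (filterByExpr, TMM, glmQLFit and glmQLFTest, only the compared groups, no block, Benjamini-Hochberg, threshold 0.1), TE as an assay-by-treatment interaction in all 8 second-study libraries and time as an interaction in the first study. The SE is the log2 fold change divided by the root of the F statistic. Steps were tested on simulated data. CPM used TMM factors over the 22 ribo-seq libraries, and apart over the 4 mRNA-seq libraries. Dmax followed the authors' scripts (at least 10 reads, bins of 300, Z-score of 2), run with pandas 2.3.3, scipy 1.17.1 and numpy 2.4.6 under Python 3.11.15. Shares on the first 50 codons used at least 50 reads per library for the background. Alternatives were DESeq2 1.42.0, its size factors in edgeR, no filter, a threshold of 0.05, codons after 50, trimmed ends (15 and 5 codons), a replicate block, for TE the culture as a block, all 18 libraries of the first study in 1 fit, and each library left out. The text names every member, the gene of lowest p in each wider list, and 3 transcripts the compound is known to stall. Replicates are biological per the study's methods.

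Same-numbered libraries were checked for pairing by correlating their deviations from group means across the 8203 transcripts that had 50 reads or more. Every pair was over 0.1 between 1.5 µM and vehicle after 60 min (0.555, 0.418 and 0.602) and between 0.3 µM and vehicle after 10 min (0.238, 0.159 and 0.6) and 60 min (0.464, 0.45 and 0.617), but not after 10 min of 1.5 µM (0.25, 0.259 and 0.0629) or between vehicle times. In the second study the methods state that both assays came from the same sample, which pairs the assays.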

Additional observations from a re-analysis of the deposited data

Results flagged for a closer look

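In 5 measures, all treated libraries of one comparison with 1.5 µM lay above vehicle and all those of another lay below it. In none of them was the difference between the comparisons tested, and the second study has 2 libraries a group, with which groups are often apart. The share of all transcripts with such a reversal was not computed, so the count of 5 has no background and is a description.

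The PELO log2 fold change was 0.16 after 10 min in the first study, with all treated libraries higher, and -0.20 in the second study, with both lower. The PELO share on codons 1 to 50 differed from vehicle by 3.18 percentage points after 10 min and by -3.24 in the second study. In mRNA-seq of the same second-study cultures the PELO share differed by -2.97 points, on 42 and 30 reads with 1.5 µM and 45 and 66 with vehicle. Whether the differences in the 2 assays have a common source was not tested. The EIF4E2 share on the same codons differed by 1.72 points in the second study and by -8.74 after 60 min in the first, both 60-min treatments. The share of ABCE1 at its last sense codon differed by 0.96 points in the second study and by -2.33 after 10 min. The share of HBS1L at codon 252 differed by 1.32 points in the second study and by -0.66 after 10 min.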

How the results depend on the processing

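Of 1280 log2 fold changes of the 10 genes recomputed under an alternative, 1271 kept their direction or, uncalled, changed sign by moving no more than 1 SE of the reported value (95 changed sign in all), and they ran from -0.48 to 0.35. One passed the threshold: without vehicle replicate 3, LTN1 after 10 min (-0.35, adjusted p = 0.0655), in a fit that called 14.9% of all transcripts. The count of the 10 genes called was 0 in 127 of 128 alternatives, and over the libraries left out after 10 min of 1.5 µM it ranged from 0 to 1. With the replicate number as a block it was 0 in all 9 comparisons, so the block changed no call among the 10. Among the 8 that changed sign by a larger move, all uncalled, were EIF4E2 after 60 min of 1.5 µM on codons after 50 (0.08) and after 10 min of 0.3 µM with trimmed ends (-0.02). Over the libraries left out in turn, the mRNA values ranged from -0.26 to 0.26 for NEMF, -0.06 to 0.28 for LTN1 and -0.07 to 0.28 for EIF4E2, TE of EIF4E2 from -0.17 to 0.17, and with 0.3 µM after 60 min ABCE1 from -0.14 to 0.11 and LTN1 from -0.16 to 0.11. A lone library left in a group of the second study is assumed to vary like the other group. The cause was not tested.

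Counts over all transcripts moved far more. After 10 min of 1.5 µM, 94 calls became 1196 with the replicate block, 516 in DESeq2, 195 on codons after 50, 155 with trimmed ends, 30 in the fit of 18 libraries, 29 at a threshold of 0.05 and 9 to 1656 without 1 library, each of the 6 libraries moving it by over 1.5 times and vehicle replicate 3 giving the highest count. After 60 min, 8 became 51 with the block, 16 in DESeq2, 19 on codons after 50, 14 in the fit of 18 libraries and 0 to 8 without 1 library. In ribo-seq of the second study 13 became 129 with the block, 29 on codons after 50 and 10 to 129 without 1 library, and for TE 4 became 13 with the block and 13 with the culture as a block, 11 in DESeq2, 15 on codons after 50 and 1 to 128 without 1 library. Between the vehicle times 0 became 7 with the block, 43 in DESeq2 and 3 without a filter. No Dmax Z-score of the 10 genes passed 2 under any alternative. The median difference of the 8 genes at the last sense codon after 10 min, -0.664 percentage points, was -0.551 with neighboring codons included and -1.05 to -0.554 without 1 library. The culture as a block for TE, the last sense codon widened to its neighbors, and leaving a library out there, were added after seeing the data.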
